A study of Homo sapiens with 12 samples.

Results

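The 50 genes described here drive the passage from G2 into and through mitosis: the CDK1-cyclin switch, the transcription factors FOXM1 and MYBL2, mitotic kinases, spindle checkpoint and kinetochore proteins, kinesins, spindle and midzone proteins, and chromosome condensation factors. They were chosen by gene symbol from a table of 29094 RefSeq accession rows, and 49 of the 50 had enough counts to be tested. MELK was the exception. All 12 libraries came from MCF10AT, a line of mammary epithelial cells transformed by HRasG12V, so the oncogene was present in every group. The groups were NS1 and NS2, which carried non-silencing control shRNAs, and EP300 KD1 and EP300 KD2, which carried different shRNAs against EP300, with 3 libraries in each. Per the labels, shRNAs were delivered by lentivirus, transduced cells were selected with puromycin and kept as stable lines, and no cloning step was named. EP300 encodes p300, an acetyltransferase that acts on histones and transcription factors. The design gives each hairpin a corresponding control, matched here by number: EP300 KD1 was set against NS1 and EP300 KD2 against NS2. Whether a group's 3 libraries stem from separate cultures is not in the labels, and p-values therefore speak only to the scatter among the libraries at hand, which could be purely technical.

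Entry into mitosis turns on cyclin B bound to CDK1, which the WEE1 and PKMYT1 kinases hold inactive and CDC25 phosphatases release. Chromosomes are then condensed, captured by kinetochores, checked by the BUB1, BUB1B, MAD2L1 and TTK proteins, and separated once CDC20 and the anaphase-promoting complex mark securin and cyclin B for destruction. Most of these genes are transcribed late in the cell cycle, when B-MYB (MYBL2) and FOXM1 join the MuvB complex, which binds the cell cycle homology region (CHR) of their promoters, and they are low in resting cells.

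EP300 itself was checked first. Its level was 171, 177 and 167 CPM (counts scaled to library size with TMM factors) in NS1 and 108, 106 and 108 in EP300 KD1. It was 165, 180 and 177 in NS2 and 95.1, 99.9 and 92.3 in EP300 KD2. No knockdown library overlapped a control library. EP300 stood at 62.4% of NS1 with the first hairpin (log2 -0.68 ± 0.035 SE, adjusted p = 2.6e-12) and at 55.0% of NS2 with the second (log2 -0.86 ± 0.035, adjusted p = 1.1e-13). The transcript was thus lowered by both hairpins but not lost. CREBBP, which encodes the related acetyltransferase CBP, did not pass the test with either hairpin (log2 -0.03 ± 0.031 and -0.06 ± 0.031, adjusted p = 0.45 and 0.092). Here and below, p-values are from edgeR's quasi-likelihood test with Benjamini-Hochberg adjustment over 13424 rows, the threshold is 0.05, and a gene that passes is called higher or lower. Library totals ran from 31396653 to 45606950 counts. The median coefficient of variation of 46 members within a group lay between 2.04% and 2.80%, and some changes of a few percent passed the test. Several such calls were lost when a single library was left out, as given below.

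The changes of the G2 and mitosis genes differed between the knockdown lines. Each hairpin was carried by its own line, so its effect and a difference between lines cannot be told apart. Here and below, a change with a hairpin is that of its line against the control. With the second hairpin nearly all of them rose: 46 of the 49 tested were higher in EP300 KD2 than in NS2, only CDC25B was lower, and NCAPG and SPC25 did not pass. Over all rows tested in that comparison 27.9% were higher and 29.9% lower. The members' median change was log2 0.41, from -0.39 for CDC25B to 0.64 for DLGAP5. With the first hairpin 24 members fell, 10 rose and 15 did not pass, with a median of log2 -0.065 and a range from -0.96 for MYBL2 to 0.27 for KIF14. The background of that comparison was 32.6% higher and 32.3% lower. In RNA from whole cultures, a different number of cells in G2 and mitosis and a different amount of RNA per such cell cannot be told apart.

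The test of the difference between the hairpins' effects, a contrast of all 4 groups, passed in the positive direction for 46 members, against a background of 21.6%. CDC25B alone passed in the negative direction, where the background was 29.2%. CKAP2L (log2 -0.01 ± 0.048, adjusted p = 0.93) and NCAPG did not pass. The median difference was log2 0.52 and its largest value was 1.495 for MYBL2. Scaled by library totals rather than TMM, the split of all rows moved from 3744 higher and 4018 lower to 4979 and 3144 for the second hairpin, and from 2903 and 3915 to 3780 and 3117 for the difference. The members' calls moved from 46 to 47 higher for the second hairpin and stayed at 46 for the difference.

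**Figure D1:**
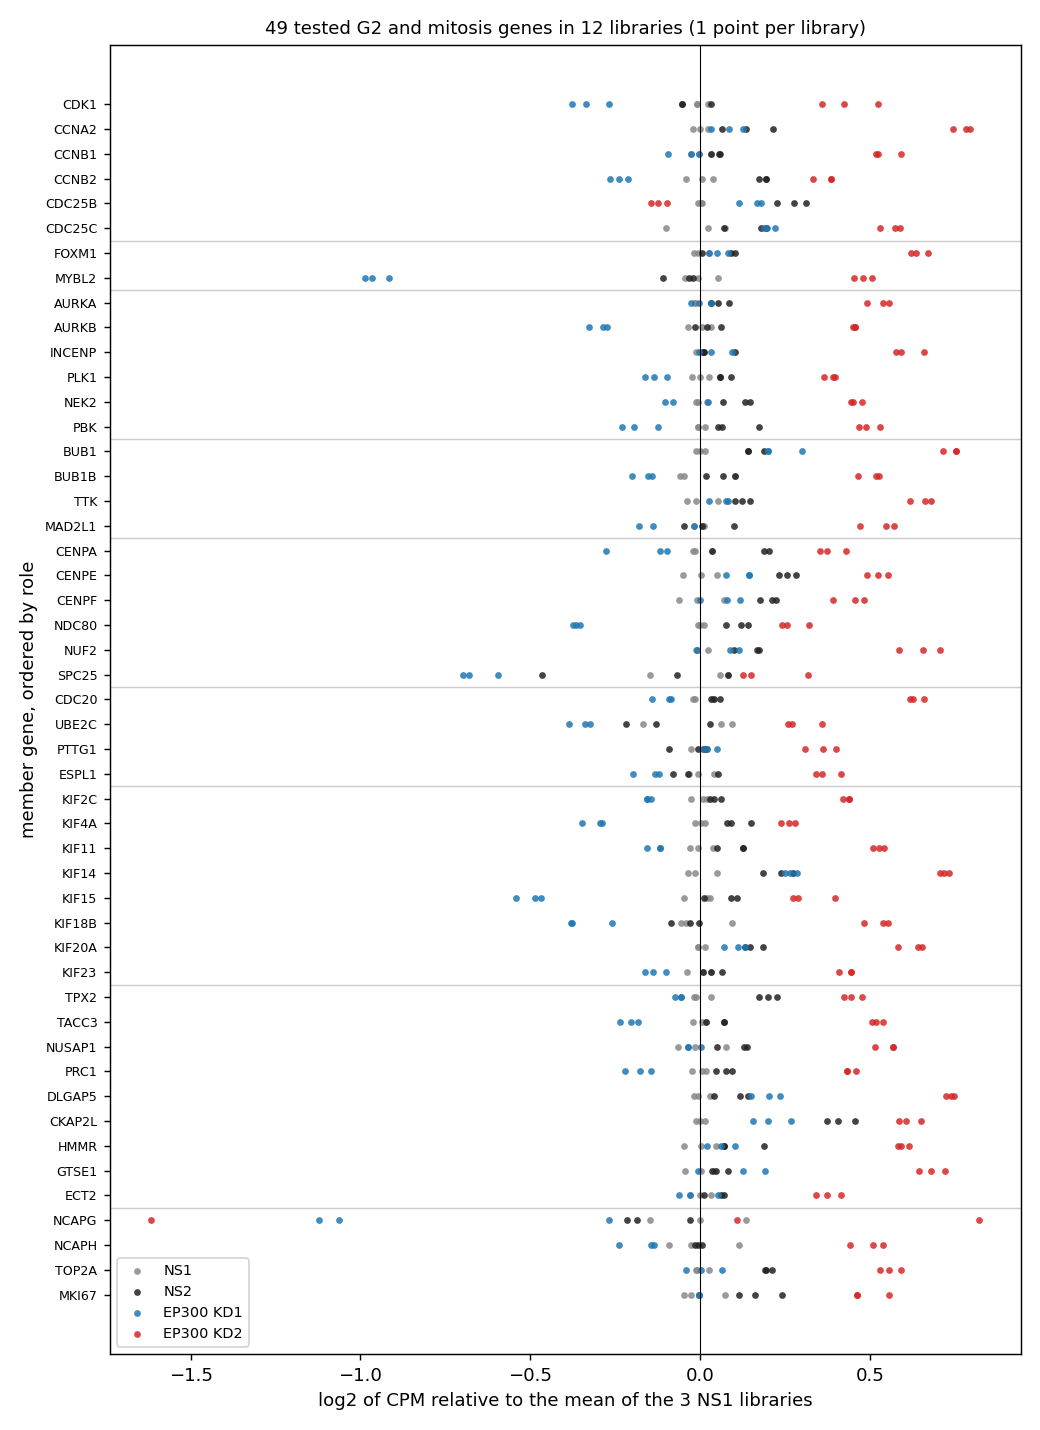
Level of each of the 49 tested members in each of the 12 libraries, as log2 of CPM relative to the mean of the 3 NS1 libraries (x axis), with members ordered by role (y axis) and 1 point per library. The EP300 KD2 points lie to the right of all 9 other libraries for 47 members, and the EP300 KD1 points lie to the left of all 9 others for 23.

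Library by library, the members' median log2 level relative to the NS1 mean was 0.476, 0.509 and 0.53 in EP300 KD2. It was -0.105, -0.089 and -0.019 in EP300 KD1, 0.09, 0.092 and 0.059 in NS2, and -0.016, 0.023 and -0.003 in NS1. The EP300 KD2 libraries thus stood apart from the other 9, while the third EP300 KD1 library came close to NS1. For 47 of the 49 members (95.9%) all 3 EP300 KD2 libraries lay above all 9 others, as did 12.1% of all rows tested. For 23 members (46.9%) all 3 EP300 KD1 libraries lay below all 9 others, against 13.9% of all rows. The plot of the members by library shows both shifts. Members lower with the first hairpin and higher with the second numbered 23 (46.9%), where the background was 5.68%. Members higher with both hairpins numbered 9 (18.4%), near the background of 15.3%. The remaining member that fell with the first hairpin was SPC25.

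The control lines also differed from each other in these genes. In NS2, 26 members were higher than in NS1 and none was lower, against backgrounds of 14.2% and 13.4%. The largest such difference was that of CKAP2L, which stood at 45.6, 46.5 and 46 CPM in NS1 and at 61.0, 63.1 and 59.6 in NS2 (log2 0.41 ± 0.035, adjusted p = 5.5e-08). The members' median difference was log2 0.07, and without NS2 replicate 2 the count of higher members fell to 15. DESeq2 called 23 members higher and 0 lower in NS2. This comparison shares NS1 with that of the first hairpin and NS2 with that of the second, which have no library in common. Which control was used bore on the first hairpin. Set against NS2, EP300 KD1 had 33 members lower and 2 higher, with a median of log2 -0.167, where the background was 31.6% lower and 30.6% higher. Only BUB1 (log2 0.08, adjusted p = 0.025) and DLGAP5 (log2 0.10, adjusted p = 0.0081) were still higher. Set against NS1, EP300 KD2 again had 46 members higher and 1 lower, with a median of log2 0.50 and backgrounds of 29.3% and 30.7%.

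The promoters of the members were searched because so many of the genes moved together. In the RefSeq promoter table (GRCh38.p14, 250 bases before to 50 after a gene's start) 44 of the 50 members had an entry. Shown are the stretches before the start for the 5 members with the smallest p for the difference between hairpins among the 19 that hold both TTTGAA and CCAAT there, on either strand. MYBL2 and CDC25B follow, chosen after their values were seen because their changes were the most extreme. Each runs 5′ to 3′ on the gene's strand, and capitals mark matches to known elements. The CHR letters are TTTGAA, which appear as TTCAAA where the element sits on the opposite strand, or the variant TTTAAA. The NF-Y letters are CCAAT, which appear as ATTGG on the opposite strand. CDC20 is at chr1:43358793-43358980 on the plus strand, PRC1 at chr15:90994536-90994695 on the minus strand, CDK1 at chr10:60778160-60778330 on the plus strand, KIF11 at chr10:92592970-92593129 on the plus strand and KIF23 at chr15:69414128-69414348 on the plus strand. MYBL2 is at chr20:43666954-43667113 and CDC25B at chr20:3786791-3786950, both on the plus strand.
CDC20: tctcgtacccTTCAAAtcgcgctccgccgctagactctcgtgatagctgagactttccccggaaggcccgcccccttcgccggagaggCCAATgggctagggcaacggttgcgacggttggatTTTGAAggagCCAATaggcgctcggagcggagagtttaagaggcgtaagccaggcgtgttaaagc
PRC1: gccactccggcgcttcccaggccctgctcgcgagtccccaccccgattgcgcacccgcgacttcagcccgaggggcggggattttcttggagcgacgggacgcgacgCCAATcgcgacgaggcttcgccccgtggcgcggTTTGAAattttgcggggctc
CDK1: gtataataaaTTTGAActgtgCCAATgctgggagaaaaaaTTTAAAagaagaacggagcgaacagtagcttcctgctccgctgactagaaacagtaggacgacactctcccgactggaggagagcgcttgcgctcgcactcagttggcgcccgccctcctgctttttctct
KIF11: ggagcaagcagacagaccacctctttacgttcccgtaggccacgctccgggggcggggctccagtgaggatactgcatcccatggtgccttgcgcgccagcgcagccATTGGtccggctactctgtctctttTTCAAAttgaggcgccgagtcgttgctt
KIF23: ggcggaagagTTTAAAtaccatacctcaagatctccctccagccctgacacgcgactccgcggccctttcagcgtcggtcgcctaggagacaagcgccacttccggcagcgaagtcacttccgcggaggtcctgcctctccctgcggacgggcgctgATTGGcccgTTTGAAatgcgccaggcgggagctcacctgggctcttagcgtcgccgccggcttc
MYBL2: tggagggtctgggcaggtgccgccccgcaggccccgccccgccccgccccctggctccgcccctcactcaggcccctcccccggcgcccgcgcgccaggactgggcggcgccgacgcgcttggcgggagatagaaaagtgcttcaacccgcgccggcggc
CDC25B: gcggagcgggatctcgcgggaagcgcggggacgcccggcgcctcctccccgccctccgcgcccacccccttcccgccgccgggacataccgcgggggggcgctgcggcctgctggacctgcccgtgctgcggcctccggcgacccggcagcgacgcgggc
In these stretches the PRC1 element TTTGAA lies 20 to 15 bases before the start and its CCAAT box 53 to 49 bases before it. In KIF11 the same elements, both on the other strand, lie 28 to 23 and 53 to 49 bases before the start. CDC20 holds 2 TTTGAA elements and 2 CCAAT boxes. The printed stretches of MYBL2 and CDC25B hold none of these letters, which says nothing about the factors that bind there.

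TTTGAA, on either strand, was found in 29 of the 44 member promoters (65.9%), in 10.2% of the 10283 tested genes with a promoter in the table and in 15.4% of all 27305 promoters. TTTAAA, which reads the same on both strands, was found in 34.1% of member promoters, 7.82% of tested genes and 12.3% of all promoters. CCAAT was found in 72.7%, 36.8% and 35.7%, and at least 2 copies of it in 43.2%, 13.6% and 11.3%. The E2F letters TTTGGCGC, TTTCCCGC, TTTCGCGC or TTTGCCGC were found in 4 member promoters (9.09%), beside 5.32% of tested genes and 3.33% of all promoters. In a list of S phase genes the order was turned around, with E2F letters in 15 of 27 promoters (55.6%) and TTTGAA in 1 of 27 (3.70%). Sorted by the call with the first hairpin, TTTGAA was found in 16 of the 21 promoters of members that fell, in 4 of the 10 of members that rose and in 9 of the 12 of members that did not pass. In the same order, TTTAAA was found in 7, 4 and 4, and at least 2 copies of CCAAT in 5, 4 and 10. These are matches of letters, counted without a test.

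**Figure D2:**
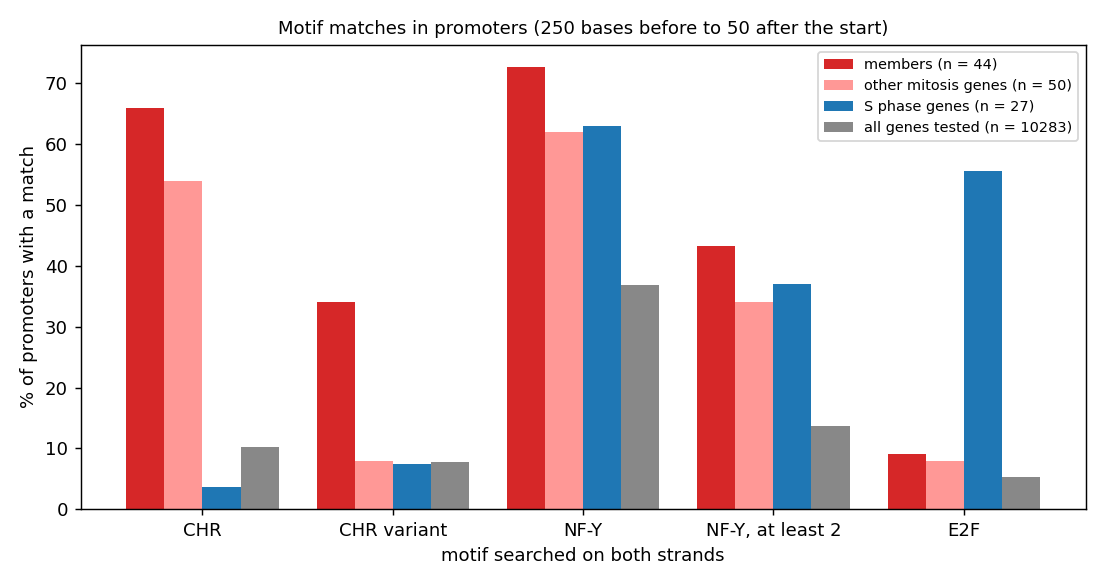
Share of promoters (y axis, percent) that hold each element on either strand (x axis), for 44 members, 50 other mitosis genes, 27 S phase genes and 10283 tested genes. The CHR bar reaches 65.9% in the members and 3.70% in the S phase genes, and the E2F bar 9.09% and 55.6%.

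Of the 6 genes of the CDK1 switch, 5 rose and CDC25B fell with the second hairpin (median log2 0.44). With the first 3 rose, 2 fell and 1 did not pass (median log2 0.02). For this role group and those below, the background with the first hairpin was 32.6% higher and 32.3% lower. With the second it was 27.9% higher and 29.9% lower. CDK1 (NM_001170406, chr10:60778331-60794852), the kinase of mitotic entry, stood at 134, 134 and 137 CPM in NS1 and at 107, 104 and 112 in EP300 KD1. It stood at 138, 130 and 130 in NS2 and at 181, 173 and 194 in EP300 KD2. The 4 groups did not overlap except for the controls, with the first hairpin lowest and the second highest. CDK1 fell by 0.33 on the log2 scale with the first hairpin (SE 0.038, adjusted p = 4.5e-07) and rose by 0.46 with the second (SE 0.037, adjusted p = 2.6e-09). CCNB1, the B-type cyclin that activates it, stood at 289, 294 and 301 CPM in NS1, 289, 276 and 294 in EP300 KD1, 307, 301 and 306 in NS2 and 422, 423 and 444 in EP300 KD2. Its EP300 KD1 and NS1 libraries overlapped (log2 -0.04 ± 0.028, adjusted p = 0.19), while those of EP300 KD2 were all above NS2 (log2 0.50 ± 0.027, adjusted p = 9.3e-12). CCNB2, the other B-type cyclin, fell by 0.24 with the first hairpin (SE 0.027) and rose by 0.18 with the second (SE 0.026). CCNA2, the cyclin of S phase and G2, rose by 0.63 with the second hairpin (SE 0.033) and by 0.08 with the first (SE 0.033, adjusted p = 0.036).

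The CDC25 phosphatases, which remove the inhibitory phosphates from CDK1, parted. CDC25C rose with both hairpins, by log2 0.20 ± 0.043 and 0.41 ± 0.042. CDC25B (NM_001287516, chr20:3786951-3806115) stood at 407, 404 and 406 CPM in NS1 and at 455, 459 and 439 in EP300 KD1. It stood at 474, 503 and 491 in NS2 and at 372, 379 and 367 in EP300 KD2. Alone among the members it was lowest in EP300 KD2 and highest in a control line. CDC25B rose by 0.15 with the first hairpin against NS1 (SE 0.025, adjusted p = 3.1e-05) but was 0.12 lower on the log2 scale when EP300 KD1 was set against NS2 (-0.12, adjusted p = 0.00041). It fell by 0.39 with the second hairpin against NS2 (SE 0.025, adjusted p = 9.2e-11) and by 0.12 against NS1 (adjusted p = 0.00031).

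The 2 transcription factors of the late cell cycle did not move alike. MYBL2 (NM_002466, chr20:43667114-43716482), which encodes B-MYB, stood at 114, 122 and 117 CPM in NS1 and at 59.4, 62.3 and 60.2 in EP300 KD1. It stood at 109, 116 and 115 in NS2 and at 161, 164 and 167 in EP300 KD2. The control libraries overlapped, and each knockdown line was clear of them on its own side. MYBL2 fell by 0.96 with the first hairpin (SE 0.033, adjusted p = 5.7e-15) and rose by 0.54 with the second (log2, SE 0.030, adjusted p = 1.5e-11). FOXM1, the forkhead factor that takes over from B-MYB in G2, stood at 126, 130 and 127 CPM in NS1, 130, 135 and 132 in EP300 KD1, 128, 137 and 136 in NS2 and 196, 198 and 203 in EP300 KD2. It changed by log2 0.05 ± 0.029 with the first hairpin (adjusted p = 0.12) and rose by 0.57 ± 0.028 with the second (adjusted p = 2e-12). A part of the FOXM1 exons is shared with ITFG2 on the other strand. The strand setting of the counting is not given in the sources used here, so reads of such overlapping genes may not be separated.

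**Figure D3:**
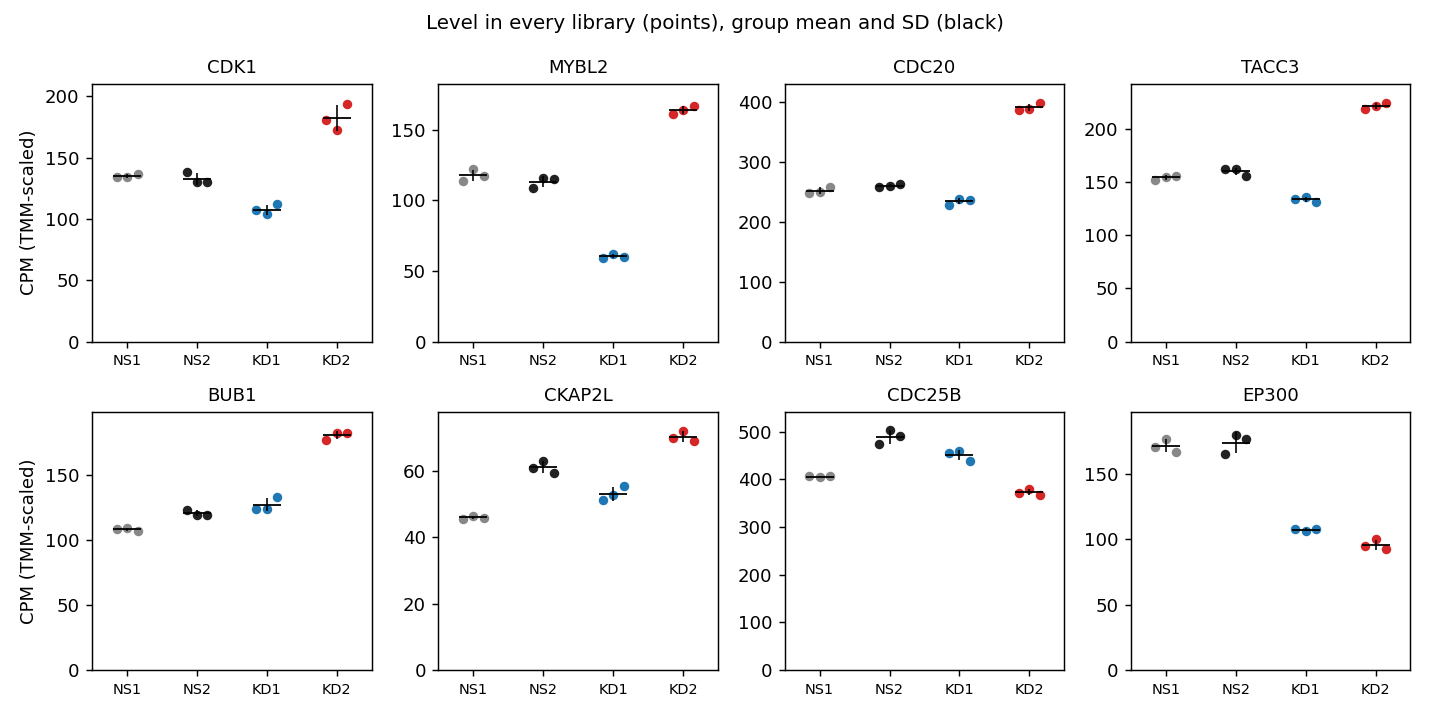
CPM (y axis, from 0) of CDK1, MYBL2, CDC20, TACC3, BUB1, CKAP2L, CDC25B and EP300 in the 4 groups (x axis), with 1 point per library and the group mean and SD in black. In the top row EP300 KD1 is below both controls and EP300 KD2 above both, BUB1 and CKAP2L are above NS1 in both knockdown lines, and CDC25B is lowest in EP300 KD2, at 367 to 379 CPM.

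Of 6 tested genes of mitotic kinases and the inner centromere protein INCENP, 3 fell and 3 did not pass with the first hairpin (median log2 -0.09), and all 6 rose with the second (median 0.42). AURKB, the kinase of the chromosomal passenger complex, stood at 63.0, 66.1 and 64.9 CPM in NS1, 51.5, 53.0 and 53.5 in EP300 KD1, 65.6, 64.0 and 67.4 in NS2 and 88.7, 88.2 and 88.6 in EP300 KD2. Both knockdown lines were clear of the controls, in opposite directions (log2 -0.30 ± 0.031, adjusted p = 7.7e-08, and 0.43 ± 0.029, adjusted p = 2e-10). PLK1, which promotes mitotic entry and spindle assembly, followed with 168, 165 and 171 CPM in NS1, 150, 157 and 153 in EP300 KD1, 175, 175 and 179 in NS2 and 216, 220 and 221 in EP300 KD2. It fell by 0.13 (SE 0.025, adjusted p = 0.00015) and rose by 0.31 (SE 0.024, adjusted p = 1.7e-09). AURKA, the kinase of the spindle poles, stood at 124, 128 and 124 CPM in NS1 and at 123, 125 and 128 in EP300 KD1, a change of log2 0.00 ± 0.027 (adjusted p = 0.96). In the other pair it went from 128, 133 and 130 to 176, 182 and 184 (log2 0.47 ± 0.026, adjusted p = 1.3e-11). INCENP, which holds AURKB at the centromere, changed by log2 0.04 ± 0.034 with the first hairpin and rose by 0.57 ± 0.033 with the second. PBK, a kinase active in mitosis, fell and rose (log2 -0.18 ± 0.034 and 0.41 ± 0.033), and NEK2, a centrosome kinase, changed by -0.05 ± 0.036 and rose by 0.34 ± 0.034.

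Among the 4 spindle checkpoint genes, 1 rose, 2 fell and 1 did not pass with the first hairpin, and all 4 rose with the second (median log2 0.52). BUB1, the checkpoint kinase of the kinetochore (NM_004336, chr2:110637528-110678063), stood at 108, 109 and 107 CPM in NS1 and at 124, 124 and 133 in EP300 KD1. It stood at 123, 119 and 119 in NS2 and at 177, 182 and 182 in EP300 KD2. EP300 KD1 was above all 6 control libraries, and EP300 KD2 above all others. BUB1 rose by log2 0.23 ± 0.030 (adjusted p = 1.3e-06) and 0.59 ± 0.029 (adjusted p = 1.9e-12). BUB1B, a part of the mitotic checkpoint complex, stood at 111, 123 and 110 CPM in NS1, 103, 99.7 and 104 in EP300 KD1, 120, 123 and 116 in NS2 and 158, 164 and 165 in EP300 KD2, and so fell by 0.16 (SE 0.039, adjusted p = 0.0014) and rose by 0.44 (SE 0.037, adjusted p = 5.3e-09). Its exons overlap those of the BUB1B-PAK6 readthrough on the same strand. MAD2L1, which inhibits CDC20, stood at 91.9, 93.7 and 93.6 CPM in NS1 and 84.5, 82.2 and 91.8 in EP300 KD1, a change of -0.11 ± 0.041 (adjusted p = 0.024), and went from 99.6, 93.3 and 90.0 in NS2 to 136, 129 and 138 in EP300 KD2 (log2 0.52 ± 0.040, adjusted p = 1.4e-09). TTK, the kinase that starts the checkpoint signal, stood at 53.5, 57.0 and 54.5 CPM in NS1 and at 56.0, 57.9 and 58.2 in EP300 KD1, which overlap (adjusted p = 0.099). It went from 59.0, 59.9 and 60.9 in NS2 to 84.3, 86.9 and 88.1 in EP300 KD2 (log2 0.53 ± 0.031, adjusted p = 2.4e-11).

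The kinetochore and centromere genes had the smallest median change of any role group with the second hairpin, log2 0.25, with 5 of 6 higher. With the first hairpin 1 rose, 3 fell and 2 did not pass (median -0.05). NDC80, the microtubule-binding subunit of the outer kinetochore, stood at 50.3, 49.7 and 49.9 CPM in NS1, 38.8, 38.5 and 39.1 in EP300 KD1, 54.3, 55.1 and 52.7 in NS2 and 59.0, 59.6 and 62.3 in EP300 KD2. Its fall of 0.36 with the first hairpin (log2 -0.36 ± 0.033, adjusted p = 1.1e-08) was larger than its rise of 0.16 with the second (SE 0.031, adjusted p = 0.00024). NUF2, its partner in the same complex, did not show that fall: it stood at 38.3, 38.2 and 39.2 CPM in NS1, 41.0, 38.3 and 41.7 in EP300 KD1, 43.3, 43.5 and 41.3 in NS2 and 57.8, 60.7 and 62.9 in EP300 KD2. NUF2 changed by log2 0.06 ± 0.041 (adjusted p = 0.18) and rose by 0.50 ± 0.039 (adjusted p = 1.5e-09). CENPA, the histone H3 variant of centromeres, stood at 23.6, 22.8 and 22.7 CPM in NS1, 21.2, 19.0 and 21.5 in EP300 KD1, 26.5, 23.6 and 26.2 in NS2 and 29.8, 29.4 and 31 in EP300 KD2. It fell by 0.16 (SE 0.052, adjusted p = 0.011) and rose by 0.24 (SE 0.050, adjusted p = 0.00038). CENPE, the kinesin of the kinetochore, rose by log2 0.12 ± 0.030 and 0.27 ± 0.029. CENPF, a large protein of the outer kinetochore, changed by 0.07 ± 0.034 with the first hairpin (adjusted p = 0.097) and rose by 0.24 ± 0.034 with the second.

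All 4 genes of the metaphase-to-anaphase step rose with the second hairpin (median log2 0.40), and 3 fell with the first (median -0.13). CDC20, the activator of the anaphase-promoting complex (NM_001255, chr1:43358981-43363203), stood at 248, 249 and 258 CPM in NS1 and at 228, 237 and 236 in EP300 KD1. It stood at 257, 259 and 262 in NS2 and at 386, 388 and 397 in EP300 KD2. The first hairpin's libraries were lowest, and the second's stood far above all others. CDC20 fell by 0.11 (SE 0.025, adjusted p = 0.00078) and rose by log2 0.59 ± 0.024 (adjusted p = 1.3e-13). ESPL1, which encodes separase, the protease that cuts cohesin, stood at 53.2, 54.9 and 52.2 CPM in NS1, 46.6, 48.7 and 49.1 in EP300 KD1, 52.1, 50.5 and 55.4 in NS2 and 71.2, 68.5 and 67.6 in EP300 KD2. It fell by 0.15 (SE 0.038, adjusted p = 0.002) and rose by 0.39 (SE 0.037, adjusted p = 2.1e-08). PTTG1, which encodes securin, the inhibitor of separase, did not pass with the first hairpin: 203, 210 and 208 CPM in NS1 and 214, 210 and 208 in EP300 KD1 gave log2 0.03 ± 0.030 (adjusted p = 0.43). From NS2 to EP300 KD2 it went from 194, 209 and 206 to 256, 266 and 273 (log2 0.38 ± 0.030, adjusted p = 1.8e-09).

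Kinesins were the group most often called with the first hairpin: all 8 passed, 6 lower and 2 higher (median log2 -0.14). The background there was 32.6% higher and 32.3% lower. All 8 were higher with the second hairpin (median 0.41), where the background was 27.9%. KIF18B, which shortens microtubules at their plus ends (NM_001265577, chr17:44924711-44947773), stood at 68.9, 76.4 and 69.6 CPM in NS1, 55.0, 59.8 and 55.1 in EP300 KD1, 70.1, 67.5 and 71.4 in NS2 and 104, 105 and 100 in EP300 KD2. It fell by 0.34 (SE 0.042, adjusted p = 9.9e-07) and rose by 0.56 (SE 0.040, adjusted p = 3.8e-10), the widest gap between hairpins among the kinesins (0.90 ± 0.058). KIF2C, the kinesin that corrects faulty attachments at centromeres, stood at 130, 131 and 127 CPM in NS1, 117, 116 and 116 in EP300 KD1, 135, 132 and 133 in NS2 and 175, 173 and 175 in EP300 KD2 (log2 -0.15 ± 0.023, adjusted p = 1.1e-05, and 0.39 ± 0.023, adjusted p = 2.7e-11). KIF11, the motor that pushes spindle poles apart, stood at 123, 127 and 121 CPM in NS1, 111, 114 and 114 in EP300 KD1, 135, 135 and 128 in NS2 and 176, 178 and 180 in EP300 KD2 (log2 -0.13 ± 0.028, adjusted p = 0.00063, and 0.43 ± 0.027, adjusted p = 8.6e-11). In all 3 of these kinesins the first hairpin's libraries were below both controls and the second's above both.

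KIF15, which assists KIF11 on the spindle, had the deepest fall of the kinesins with the first hairpin (log2 -0.50 ± 0.043) and rose by 0.25 ± 0.040 with the second. KIF4A, a chromosome-bound motor, fell by 0.31 (SE 0.030) and rose by 0.15 (SE 0.029), and KIF23 of the central spindle fell by 0.13 (SE 0.027) and rose by 0.39 (SE 0.026). The 2 that rose with both hairpins were KIF14 and KIF20A. KIF14 changed by log2 0.27 ± 0.031 and 0.49 ± 0.030, and KIF20A by 0.10 ± 0.026 and 0.47 ± 0.026. Against NS2, however, KIF14 did not pass with the first hairpin (log2 0.035, adjusted p = 0.34), and KIF20A had the opposite sign (-0.05, adjusted p = 0.11).

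**Figure D4:**
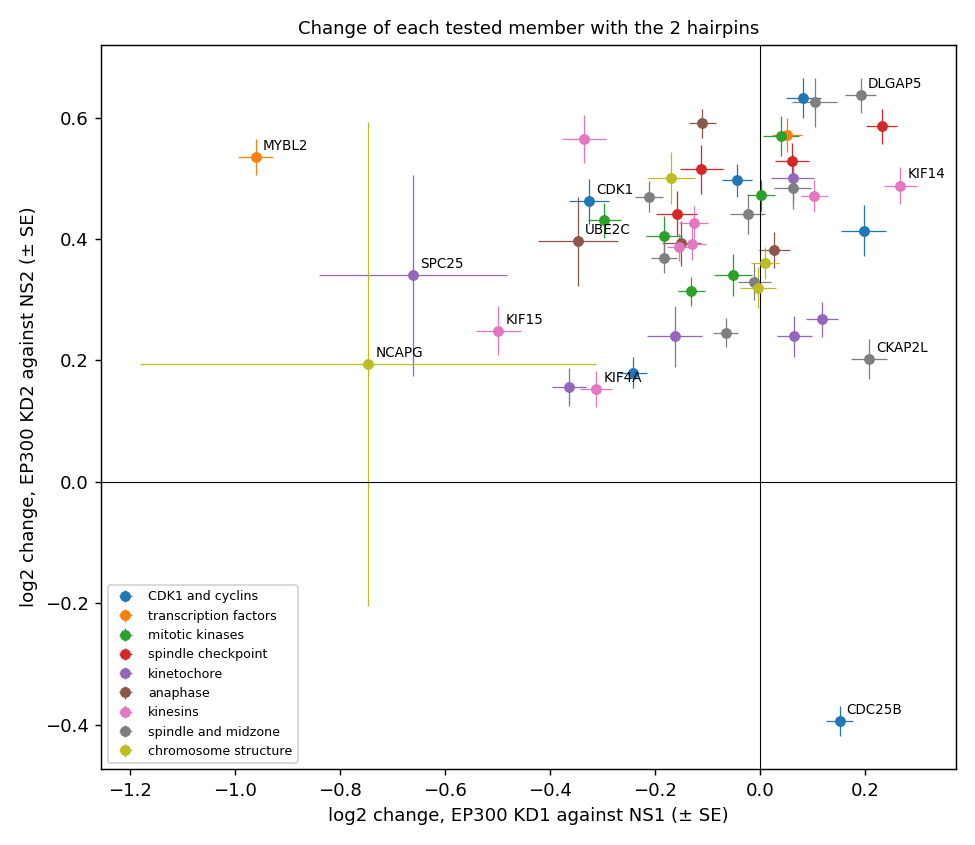
Log2 change of each of the 49 tested members with the first hairpin (x axis, EP300 KD1 against NS1) and with the second (y axis, EP300 KD2 against NS2), with bars of 1 SE and colours by role. All points but CDC25B (0.15, -0.39) lie above 0 on the y axis, and they spread to both sides of 0 on the x axis, from -0.96 for MYBL2 to 0.27 for KIF14.

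The 9 spindle and midzone genes all rose with the second hairpin (median log2 0.44) and split evenly with the first: 3 rose, 3 fell and 3 did not pass (median -0.01). TACC3, which steadies kinetochore fibres (NM_006342, chr4:1720631-1745171), stood at 152, 155 and 156 CPM in NS1, 134, 136 and 131 in EP300 KD1, 162, 162 and 156 in NS2 and 219, 221 and 224 in EP300 KD2. It fell by 0.21 (SE 0.026, adjusted p = 7.6e-07) and rose by 0.47 (SE 0.025, adjusted p = 6.1e-12). PRC1, the bundler of midzone microtubules, stood at 236, 241 and 243 CPM in NS1, 206, 212 and 217 in EP300 KD1, 248, 256 and 253 in NS2 and 324, 324 and 330 in EP300 KD2. It fell by 0.18 (SE 0.025, adjusted p = 3.1e-06) and rose by 0.37 (SE 0.025, adjusted p = 1.7e-10), and its exons overlap those of PRC1-AS1 on the other strand. DLGAP5, a spindle assembly factor, moved up with both hairpins: 120, 124 and 121 CPM in NS1 became 143, 135 and 140 in EP300 KD1, and 132, 134 and 125 in NS2 became 201, 203 and 204 in EP300 KD2. Its rises of log2 0.19 ± 0.030 (adjusted p = 1.3e-05) and 0.64 ± 0.029 (adjusted p = 5.4e-13) include the largest of all members with the second hairpin.

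TPX2, the activator of AURKA on the spindle, fell by 0.07 (SE 0.024) and rose by 0.25 (SE 0.024). CKAP2L, a spindle-associated protein, rose with each hairpin, by log2 0.21 ± 0.035 and 0.20 ± 0.033, but stood lower in EP300 KD1 than in NS2 (-0.20, adjusted p = 4.2e-05). GTSE1, which binds microtubules and p53, rose by 0.10 ± 0.043 and 0.62 ± 0.041. NUSAP1, HMMR and ECT2, of the spindle and the cleavage furrow, did not pass with the first hairpin (log2 -0.02, 0.06 and -0.01) and rose by 0.44, 0.48 and 0.33 with the second.

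In the chromosome structure group 1 gene fell and 3 did not pass with the first hairpin, and 3 rose and 1 did not pass with the second (median log2 0.34). MKI67, the proliferation marker Ki-67, stood at 674, 723 and 665 CPM in NS1 and at 686, 685 and 686 in EP300 KD1 (adjusted p = 0.95), and rose from 744, 812 and 769 in NS2 to 947, 1010 and 946 in EP300 KD2 (log2 0.32 ± 0.034, adjusted p = 1.4e-07). TOP2A, the topoisomerase that untangles sister chromatids, stood at 451, 462 and 450 CPM in NS1 and 455, 441 and 475 in EP300 KD1 (adjusted p = 0.75), and rose from 526, 519 and 518 in NS2 to 656, 668 and 684 in EP300 KD2 (log2 0.36 ± 0.026, adjusted p = 4.7e-10). Both were higher in NS2 than in NS1 (log2 0.17 ± 0.034 and 0.20 ± 0.026) and were lower in EP300 KD1 than in NS2 (-0.176, adjusted p = 0.00018, and -0.188, adjusted p = 4.1e-06). NCAPH, a condensin I subunit, stood at 51.7, 59.7 and 54.1 CPM in NS1, 46.7, 49.9 and 50.2 in EP300 KD1, 54.6, 55.3 and 54.9 in NS2 and 74.8, 78.5 and 80.1 in EP300 KD2, and so fell by 0.17 (SE 0.045, adjusted p = 0.0029) and rose by 0.50 (SE 0.043, adjusted p = 7.4e-09).

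Some members had too few counts for a firm value. MELK had only 14 and 52 counts in its 2 accession rows over all 12 libraries. NCAPG had 157 counts in 1 of 2 rows and 0 in the other, and SPC25 had 457 in its only row. UBE2C had 5455 counts in 1 of 3 rows. For MELK, NCAPG and UBE2C, which have several rows, reads shared by transcripts may not have been counted. Within these limits SPC25, an NDC80 complex subunit, fell with the first hairpin (log2 -0.66 ± 0.179, adjusted p = 0.0032) and changed by 0.34 ± 0.166 with the second (adjusted p = 0.094). UBE2C, the ubiquitin-conjugating enzyme of the anaphase-promoting complex, fell by 0.35 (SE 0.076) and rose by 0.40 (SE 0.074). NCAPG, a condensin subunit, did not pass in any comparison with all libraries, and its EP300 KD2 libraries were scattered, at 0.452, 0.137 and 0.741 CPM. In all, the exons of 10 members overlap those of another tested gene. The longest overlap was that of NCAPG with LCORL on the other strand, 1631 exon bases.

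The 10 members called higher with the first hairpin were BUB1, CCNA2, CDC25B, CDC25C, CENPE, CKAP2L, DLGAP5, GTSE1, KIF14 and KIF20A. Against NS2 in place of NS1, CDC25B, CENPE and CKAP2L were called lower (log2 -0.119, -0.135 and -0.204), and CCNA2, CDC25C, GTSE1, KIF14 and KIF20A did not pass (adjusted p = 0.16, 0.31, 0.29, 0.34 and 0.11). Another 6 members, not called against NS1, were lower against NS2: CCNB1 (-0.089, adjusted p = 0.009), CENPF (-0.138, adjusted p = 0.0017), MKI67 and TOP2A (above), NEK2 (-0.167, adjusted p = 0.00048) and NUSAP1 (-0.131, adjusted p = 0.0023).

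Single libraries bore on some calls with the first hairpin. CCNA2 lost its call without NS1 replicate 1 or 2 (adjusted p = 0.12 and 0.065) and without EP300 KD1 replicate 1 or 3 (adjusted p = 0.073 and 0.17). GTSE1 lost it without NS1 replicate 1 or 2 (adjusted p = 0.075 and 0.12) and without EP300 KD1 replicate 2 or 3 (adjusted p = 0.24 and 0.097), and DESeq2 called neither gene (adjusted p = 0.058 for CCNA2 and 0.084 for GTSE1). Of the members called lower, MAD2L1 lost its call without NS1 replicate 2 or 3 (adjusted p = 0.058 and 0.067) or EP300 KD1 replicate 1 or 2 (adjusted p = 0.078 and 0.13). TPX2 lost it without NS1 replicate 2 or EP300 KD1 replicate 3 (adjusted p = 0.11 and 0.076), and CENPA without EP300 KD1 replicate 2 (adjusted p = 0.082). Without single libraries 4 members gained a call: CENPF without NS1 replicate 2 or EP300 KD1 replicate 2 (higher, adjusted p = 0.013 and 0.017), TTK without NS1 replicate 2 (higher, adjusted p = 0.03), NUF2 without EP300 KD1 replicate 2 (higher, adjusted p = 0.045) and NEK2 without EP300 KD1 replicate 3 (lower, adjusted p = 0.036). With upper-quartile scaling CENPF, FOXM1 and TTK were called higher (adjusted p = 0.039, 0.028 and 0.027), and MAD2L1 and TPX2 were no longer called (adjusted p = 0.062 and 0.091).

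Other lists of the same pathway were counted beside the members, without a set test. Over all rows tested, 32.6% were higher and 32.3% lower with the first hairpin, and 27.9% and 29.9% with the second. Of 62 tested mitosis genes outside the 50, 57 were higher and 0 lower with the second hairpin (median log2 0.39), and 11 were higher and 36 lower with the first (median -0.14). ZWINT, a kinetochore scaffold protein, fell by 0.85 (SE 0.034) and rose by 0.48 (SE 0.032), and CDCA5, which encodes sororin, fell by 0.48 (SE 0.029) and rose by 0.56 (SE 0.028). LMNB1, the B-type lamin, fell by 0.13 (SE 0.024) and rose by 0.58 (SE 0.024). S phase genes matched the members with the second hairpin, 28 of 29 higher (median log2 0.43), but not with the first, where 28 of 29 were lower and none was higher (median -0.67). The replication licensing genes MCM3, MCM7 and MCM5 fell by 1.11, 0.62 and 0.76 and rose by 0.44, 0.42 and 0.52. Of the members that passed the test, only MYBL2 fell past that median.

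Among 20 tested upstream regulators 10 fell and 3 rose with the first hairpin, and 13 rose and 2 fell with the second. The background was 32.3% lower and 32.6% higher with the first hairpin, and 27.9% higher and 29.9% lower with the second. E2F1, a factor of S phase transcription, stood at 32.5, 30.8 and 33.1 CPM in NS1, 14, 15.2 and 15 in EP300 KD1, 29, 26.1 and 29.6 in NS2 and 38.6, 36.2 and 36.3 in EP300 KD2 (log2 -1.12 ± 0.053 and 0.39 ± 0.047). E2F2 fell by 2.20 (SE 0.074) and rose by 0.16 against NS2 (SE 0.064, adjusted p = 0.04), but had the opposite sign against NS1 (-0.186, adjusted p = 0.014). RBL1, the retinoblastoma-like p107, fell by 0.77 (SE 0.050) and rose by 0.21 (SE 0.046). Of 14 tested genes that brake the cycle, 4 rose and 7 fell with each hairpin, and the share that rose was near the background. The CDK1-inhibiting kinases differed: PKMYT1 fell by 0.95 (SE 0.055) and rose by 0.50 (SE 0.049), while WEE1 fell with both hairpins, by 0.74 (SE 0.036) and 0.10 (SE 0.035). GADD45A, a stress-induced inhibitor of the CDK1 complex, rose by 0.31 (SE 0.038) and fell by 0.37 (SE 0.038), and neither change passed when the other control was used (-0.075, adjusted p = 0.09, and 0.018, adjusted p = 0.72).

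The lists of the anaphase-promoting complex and of cohesin were not tested against the members. Their background was 32.6% higher and 32.3% lower with the first hairpin, and 27.9% higher and 29.9% lower with the second. Among 15 genes of the anaphase-promoting complex, its activator FZR1 included, 2 rose and 6 fell with the first hairpin (median log2 -0.04), and 7 rose and 1 fell with the second (median 0.12). ANAPC15, CDC27 and ANAPC4 changed by -0.26 ± 0.034, -0.04 ± 0.027 and -0.24 ± 0.041 with the first hairpin and rose by 0.13 ± 0.033, 0.20 ± 0.027 and 0.12 ± 0.040 with the second. Of 12 cohesin genes, 6 rose and 4 fell with the first hairpin, and 6 rose and 3 fell with the second. ESCO2, the cohesin acetyltransferase of S phase, fell by 0.63 (SE 0.058) and rose by 0.64 (SE 0.052), and SMC1A, a core subunit, fell by 0.32 (SE 0.025) and rose by 0.14 (SE 0.024). ESCO1, the acetyltransferase that acts outside S phase, rose by 0.27 (SE 0.037) and fell by 0.10 (SE 0.037) against NS2, and stood at 0.024 (adjusted p = 0.61) against NS1.

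**Figure D5:**
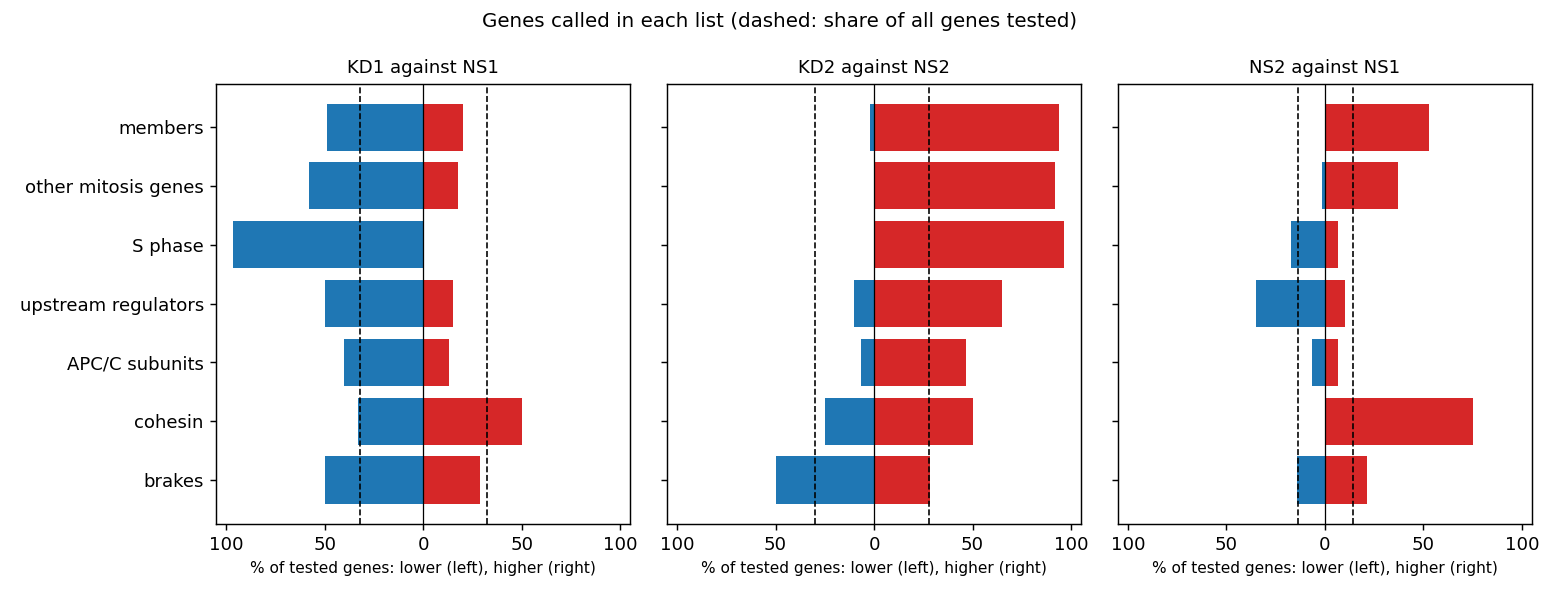
Share of the tested genes of each list (rows) called lower (blue, left) and higher (red, right) in 3 comparisons, in percent on the x axis, with dashed lines at the share of all rows tested. The members' bar covers 46 of 49 genes on the right in EP300 KD2 against NS2, and the S phase bar covers 28 of 29 on the left in EP300 KD1 against NS1.

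The lines kept epithelial markers, and these moved as well. The summed level of 8 mammary epithelial markers, all of them detected, was 5500 to 5610 CPM in NS1, 3300 to 3400 in EP300 KD1, 6180 to 6260 in NS2 and 3160 to 3210 in EP300 KD2, lower in both knockdown lines. Most of that sum was KRT5 and KRT18. KRT14 and KRT8 had low counts, with group means of at most 1.03 and 3.32 CPM. The KRT8 values are from the row of a non-coding transcript and may not stand for the gene. With the first hairpin 7 were lower and KRT8 was higher (log2 0.595). With the second 7 were lower and 1 did not pass. These counts and those of the marker lists below stand beside backgrounds of 32.6% higher and 32.3% lower with the first hairpin. With the second hairpin the backgrounds were 27.9% higher and 29.9% lower. Of 8 fibroblast markers 5 could be tested, COL1A2 and LUM were at 0 in every group, and the sum was 86.2 to 89.8 CPM in NS1, 117 to 120 in EP300 KD1, 62.8 to 68.7 in NS2 and 61.5 to 64.4 in EP300 KD2. Of the 5 tested, 4 were higher and 1 lower with the first hairpin. With the second, 2 were higher, 1 was lower and 2 did not pass. Within that list DCN rose (log2 2.57 ± 0.063 and 1.245 ± 0.077) with both hairpins, and FBLN1 (-1.95 ± 0.065 and -1.41 ± 0.071) was the lower one each time. Of 5 leukocyte markers only CD68 could be tested, and the sum was 11.4 to 14 CPM in NS1, 38.1 to 44 in EP300 KD1, 16.5 to 19.6 in NS2 and 22.4 to 24 in EP300 KD2, higher in each knockdown line than in its control. Of 5 endothelial markers 2 could be tested, and the sum was 28.7 to 32.6 CPM in NS1, 9.52 to 11.3 in EP300 KD1, 38.2 to 40.5 in NS2 and 5.33 to 6.04 in EP300 KD2, lower in each knockdown line. That sum was mostly PECAM1. KDR, with group means of at most 0.839 CPM, was higher with the first hairpin (log2 0.71) and did not pass with the second. The part of these levels in the members' changes was not tested.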

How the data were processed

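RNA sequencing of 12 MCF10AT libraries (stranded Illumina TruSeq mRNA kit, per the labels' protocols) was used. Per the submitters' processing notes, reads were aligned with HISAT2 2.1.0 to hg38 and counted with featureCounts, and the authors deposited whole-number counts, not normalised, for 29094 RefSeq accessions. The featureCounts version, its annotation, and its strand and multi-mapping options were not given in the sources used here. Symbols came from a RefSeq gene table (28134 rows) and a GENCODE table (486), and 474 rows had none. Coordinates and promoters are RefSeq's, on GRCh38.p14. In every pair of replicates counts differed by more than sampling noise, which does not show whether they were separate cultures. Each library was counted as its own sample.

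Rows passing edgeR's default filterByExpr (13424) were scaled by TMM and fitted with edgeR 4.0.16 (R 4.3.3), quasi-likelihood, 1 coefficient per group over all 12 libraries and no replicate block. P-values were adjusted by Benjamini-Hochberg with a threshold of 0.05, standard errors derive from the test statistic, and the common biological coefficient of variation was 0.03. Levels are TMM-scaled CPM. The fit was tested on simulated data with known changes. Alternatives were DESeq2 1.42.0, limma-voom 3.58.1, other scalings, no filter, other controls, rows summed per symbol, a replicate block, only the groups compared, and leaving out each library.

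Members and lists were chosen with earlier results of these data known. Genes named are EP300, CREBBP, per role group the 3 members with the smallest p for the difference between hairpins, every member higher with the first hairpin, the extremes of each comparison, and per other list the 3 genes with the smallest such p. Other members are given by their changes. Of 50 members 44 had a promoter in the table.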

Additional observations from a re-analysis of the deposited data

Results flagged for a closer look

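The genes listed here differed between the hairpins in edgeR's quasi-likelihood test of the difference itself, the change with EP300 KD2 against NS2 less the change with EP300 KD1 against NS1, at a Benjamini-Hochberg adjusted p under 0.05 over 13424 rows. Values are log2 differences. No group was tested for a library far from the others, since each held 3. The difference was -0.18 for EP300, which the second hairpin lowered further, though with library totals as the scale it shrank to -0.114 (adjusted p = 0.063). Among the members it was negative for CDC25B (-0.55) and positive for the other 46 that passed. The widest were MYBL2 1.495, SPC25 1.00, KIF18B 0.90, CDK1 0.79, KIF15 0.75, UBE2C 0.74, AURKB 0.73, CDC20 0.70, TACC3 0.68, NCAPH 0.67, MAD2L1 0.63 and BUB1B 0.60. Those of a middle size were PBK 0.59, KIF11 0.55, PRC1 0.55, CCNA2 0.55, ESPL1 0.54, KIF2C 0.54, CCNB1 0.54, INCENP 0.53, KIF23 0.52, GTSE1 0.52, NDC80 0.52, FOXM1 0.52, AURKA 0.47, TTK 0.47, KIF4A 0.47 and NUSAP1 0.47. The smallest were DLGAP5 0.45, PLK1 0.44, NUF2 0.44, HMMR 0.42, CCNB2 0.42, CENPA 0.40, NEK2 0.39, KIF20A 0.37, BUB1 0.35, PTTG1 0.35, TOP2A 0.35, ECT2 0.34, MKI67 0.32, TPX2 0.31, KIF14 0.22, CDC25C 0.22, CENPF 0.17 and CENPE 0.15.

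Of the genes outside the members that the text names, the difference was positive for E2F2 2.36, MCM3 1.55, E2F1 1.52, PKMYT1 1.45, ZWINT 1.32, MCM5 1.28, ESCO2 1.27, MCM7 1.04, CDCA5 1.04, RBL1 0.98, LMNB1 0.71, WEE1 0.64, SMC1A 0.46, ANAPC15 0.39, ANAPC4 0.36 and CDC27 0.25. It was negative for ESCO1 -0.37 and GADD45A -0.68. What lies behind these differences was not tested.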

How the results depend on the processing

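All single-gene calls were repeated under each alternative: of 2415 repeats 2316 kept their call, 62 fell below the threshold, 23 newly passed it and 14 changed sign with a call on at least 1 side; sign changes between values that both miss the threshold count among those kept. Of 3312 repeats without 1 library these numbers were 3212, 89, 11 and 0. With NS2 as the control for the first hairpin, 2 members were higher (median log2 -0.167), and with both controls pooled 4 (median -0.12). Against NS2 the signs turned, with a call on either side, for CCNA2 (-0.055), CDC25B (-0.119), CENPE (-0.135), CENPF (-0.138), CKAP2L (-0.204), GADD45A (-0.075), KIF20A (-0.049) and TOP2A (-0.188), and against pooled controls for CENPE (-0.008) and TOP2A (-0.089). The second hairpin's median was 0.483 with library totals, 0.465 with upper-quartile factors, 0.471 with no filter, 0.498 against NS1 and 0.452 against pooled controls. Such signs turned against NS1 for E2F2 (-0.186), ESCO1 (0.024) and GADD45A (0.018), and against pooled controls for E2F2 (-0.014). With library totals the median difference was 0.588, and that of EP300 no longer passed (-0.114, adjusted p = 0.063). The cause was not tested.

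Without 1 library, the first hairpin had 8 to 11 members higher and 22 to 24 lower (median -0.091 to -0.048, EP300 -0.699 to -0.656). The second had 46 to 47 higher and 1 lower (median 0.414 to 0.433, EP300 -0.897 to -0.829). The difference had 46 to 47 higher and 1 lower (median 0.475 to 0.519, EP300 -0.219 to -0.151), NCAPG passing without EP300 KD2 replicate 2 (1.359, adjusted p = 0.019). NS2 against NS1 had 15 to 26 higher and 0 lower (median 0.072 to 0.102, EP300 -0.008 to 0.058), 15 being the count without NS2 replicate 2. Same-numbered libraries did not deviate together more than others. Correlations ran from -0.040 to 0.022, and from -0.054 to 0.040 for libraries of different number. Whether same-numbered libraries shared a batch was not tested. With the replicate block the counts stayed at 10 and 24, 46 and 1, 46 and 1, and 26 and 0. A fit of only the groups compared was not run for the difference, which needs all 4 groups. MELK, NCAPG and SPC25 are limited by few counts.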

Other observations

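The change of each member with the first hairpin was set beside its change with the second. Across the 49 tested members Pearson's r between both changes was 0.114 and Spearman's rho 0.275, and across the 45 left after CDC25B and the 3 members of few or residual counts were set aside they were 0.2 and 0.292. These are descriptions across genes, which share libraries and are not independent replicates.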
